A study of Mus musculus with 15 samples.

Results

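The genes described here are 10 immediate early genes of the Fos, Jun and Egr families and their close company: Fos, Fosb, Fosl2, Jun, Junb, Jund, Egr1, Egr2, Atf3 and Ier2. They were taken from a list of gene symbols and matched to the Ensembl identifiers of the deposited count table, which holds 19456 genes, and all 10 were found. RNA was sequenced from 15 libraries of cells sorted from wild-type adult male C57BL/6 mice. Ly6Chi monocytes from blood gave 3 libraries, and 3 subsets of small intestine macrophages, sorted by the surface proteins Tim-4 and CD4, gave 4 libraries each. These were cells with neither protein (Tim-4-CD4-), cells with CD4 alone (Tim-4-CD4+) and cells with both (Tim-4+CD4+). A library pooled the cells of 3 mice, except monocyte replicate 2, which pooled 4, and none of the groups carried a transgene or a treatment. The macrophages had been freed from the gut wall by incubation with dithiothreitol and EDTA and then by liberase digestion at warm temperature. The blood had been treated with red cell lysis buffer on ice and with no enzyme.

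Immediate early genes are switched on within minutes of a stimulus by transcription factors that the cell already holds, such as serum response factor with its ternary complex partners and CREB, which are acted on by MAP kinases. Fos and Jun proteins pair through leucine zippers to form AP-1, which binds the sequence TGANTCA, while Egr proteins are zinc finger factors that bind GC-rich sites. In macrophages these factors act downstream of growth factor, adhesion and microbial signals, and their transcripts are also often raised when a tissue is taken apart by enzymes.

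For 8 of the 10 genes the RefSeq table (GRCm38.p6) gave the 250 bases before a start site. The windows were searched on both strands for the CArG box, the element bound by serum response factor, for the CREB element TGACGTCA and its core TGACG, and for TGANTCA. The windows of Fos, which had the highest level per length, of Junb, which came next, and of Egr2, which differed most between the macrophage subsets, are shown with the CArG box and TGACG (or CGTCA, the same on the other strand) in capitals.
Fos, chr12:85473640-85473889, plus strand: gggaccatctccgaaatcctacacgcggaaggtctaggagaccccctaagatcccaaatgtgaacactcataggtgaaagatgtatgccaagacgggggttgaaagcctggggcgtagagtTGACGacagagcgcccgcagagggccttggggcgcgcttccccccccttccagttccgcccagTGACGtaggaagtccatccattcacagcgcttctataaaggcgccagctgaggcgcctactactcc
Junb, chr8:84978749-84978998, minus strand: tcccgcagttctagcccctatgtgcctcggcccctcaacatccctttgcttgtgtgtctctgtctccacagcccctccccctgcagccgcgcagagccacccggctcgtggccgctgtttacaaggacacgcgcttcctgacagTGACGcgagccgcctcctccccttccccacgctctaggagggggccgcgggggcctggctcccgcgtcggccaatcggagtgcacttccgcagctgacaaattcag
Egr2, chr10:67537619-67537868, plus strand: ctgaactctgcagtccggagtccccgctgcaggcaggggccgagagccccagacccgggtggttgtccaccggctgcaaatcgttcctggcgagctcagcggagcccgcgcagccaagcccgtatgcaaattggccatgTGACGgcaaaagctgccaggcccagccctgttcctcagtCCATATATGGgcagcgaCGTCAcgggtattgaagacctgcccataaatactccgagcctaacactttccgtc
The Fos window held TGACG at 129 and 66 bases before the start, the Junb window held it at 106 bases, and this Egr2 window, 1 of 5 listed for the gene, held it at 111 and 55 bases with a CArG box at 72 bases. Fosb and Atf3 held TGACG as well, at 60 and 7 bases, while Fosl2, Jun and Jund held none of the motifs. Neither TGACGTCA nor TGANTCA lay in any of these windows. The windows of Fosb, Fosl2 and Atf3 overlapped annotated exons. Those of Fosl2 and Atf3 and the Egr2 window shown lay inside the annotated span of the gene. The Jund window ended at 70697738, upstream of the annotated gene start at 70698949. Presence or absence of a motif is thus given for these windows only, which need not be the main promoters. Over 32851 windows of the same length, 17.8% held TGACG, 1.47% a CArG box, 1.55% TGACGTCA and 6.75% TGANTCA. These matches describe letters and not bound sites.

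Total counts on genes ran from 39388763 to 151510641 per library, and of 19456 genes 15802 had counts high enough to be tested. All 10 immediate early genes were among them, with at least 69 counts in each library. Levels are given as CPM, the count of a gene scaled to a library of 1000000 counts after TMM normalization. Of the monocyte genes, Ly6c2 lay between 820 and 1540 CPM and Ccr2 between 2240 and 2880 CPM in the monocyte libraries. C1qa, a macrophage gene, lay between 3180 and 4720 CPM in the macrophages, against at most 3.33 CPM in monocytes. Of the other macrophage genes listed, Adgre1, Mertk and H2-Ab1 were also higher in every macrophage library, while Cx3cr1 and Fcgr1 overlapped. Cx3cr1 lay between 549 and 740 CPM in monocytes and 674 and 1100 CPM in macrophages, and Fcgr1 between 177 and 375 and between 240 and 318 CPM. Cd4 and Timd4 followed the sort: Cd4 reached at most 39.2 CPM in Tim-4-CD4- macrophages and at least 484 CPM in the other two, and Timd4 reached at least 336 CPM in Tim-4+CD4+ macrophages and at most 4.47 CPM elsewhere. The 12 heat shock genes stood high in 1 library of each subset, which is given beside the results that it touches.

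Immediate early transcripts took up a large part of the macrophage libraries. The 10 genes together made up 0.111%, 0.112% and 0.131% of all counts in the monocyte libraries. In Tim-4-CD4- macrophages they made up 2.79%, 3.10%, 2.84% and 2.86%, in Tim-4-CD4+ macrophages 2.45%, 2.63%, 3.22% and 2.67%, and in Tim-4+CD4+ macrophages 2.54%, 2.39%, 2.68% and 2.64%. Each macrophage library thus stood above every monocyte library, and every Tim-4-CD4- library stood above every Tim-4+CD4+ library. The Tim-4-CD4+ libraries overlapped both other subsets.

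Per kilobase of exon, Fos was the most abundant of the 10 genes in the macrophages, at 2801 CPM per kb for the Tim-4-CD4- subset, 2839 for the Tim-4-CD4+ subset and 2638 for the Tim-4+CD4+ subset. Among 15782 genes with a known length, those levels ranked 11, 9 and 12. Junb followed at 1780, 1626 and 1750 CPM per kb. Jun, Jund, Fosb, Atf3 and Egr1 came next in Tim-4-CD4- macrophages, between 855 and 1139 CPM per kb, and neighbours in that order overlapped between libraries. Ier2 lay lower, at 576 CPM per kb, and Fosl2 and Egr2 lay far lower, at 66.4 and 57.7 CPM per kb, where their libraries overlapped. The order was different in monocytes. There Ier2 came first, at 112 CPM per kb, followed by Junb, Fos and Jund, whose neighbours overlapped between libraries, and Fosb and Egr2 came last, at 1.49 and 0.445 CPM per kb.

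**Figure D1:**
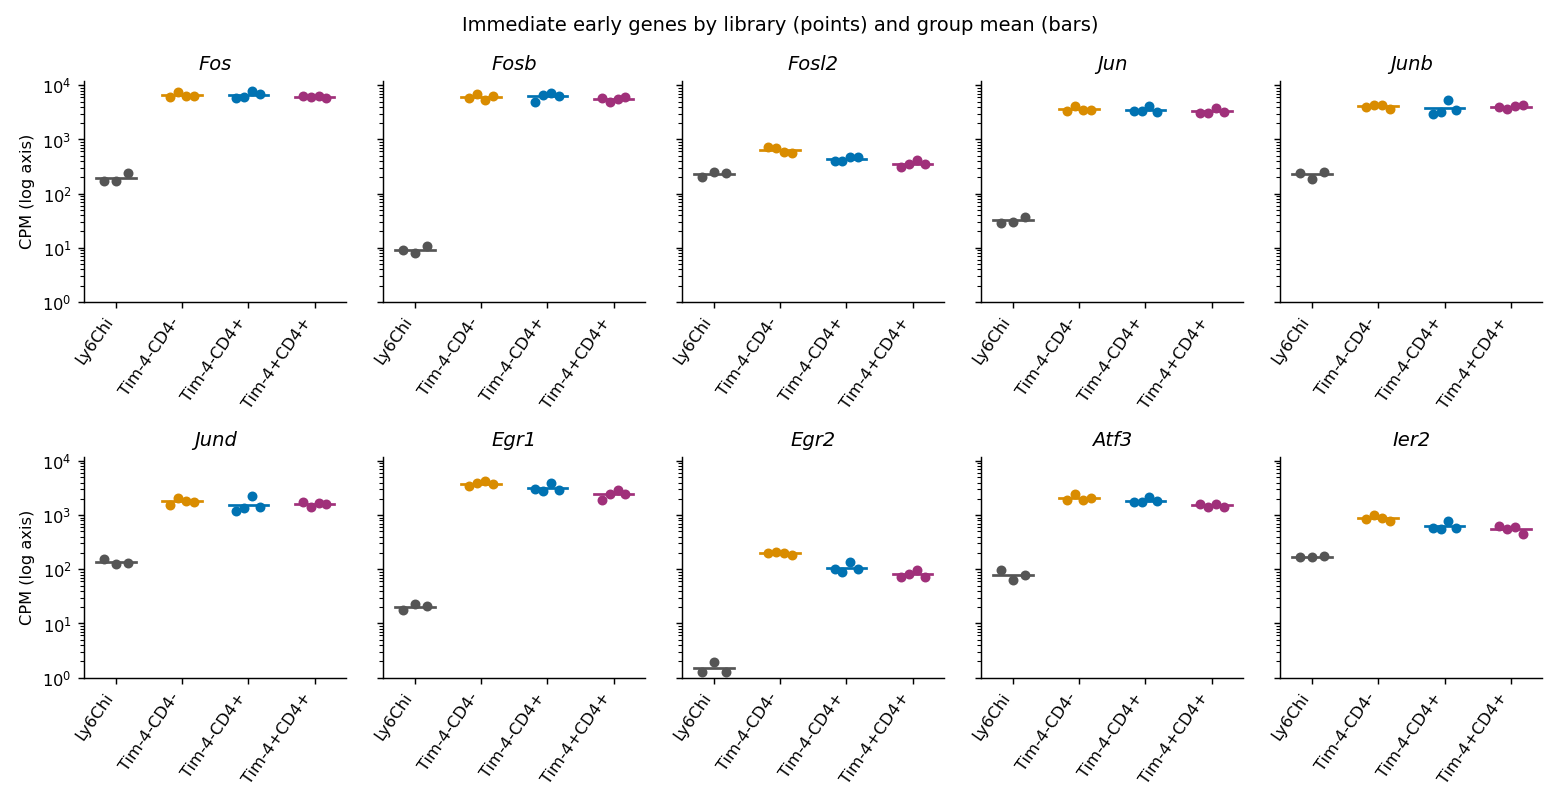
Level of each immediate early gene in CPM on a shared log axis, in 3 monocyte libraries and 4 libraries of each macrophage subset. Points are libraries in replicate order and bars are group means; in all 10 panels the macrophage points lie above the monocyte points, with the smallest step for Fosl2 and the largest for Fosb.

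Against Ly6Chi monocytes, all 10 genes were higher in each macrophage subset (edgeR quasi-likelihood test, Benjamini-Hochberg adjusted p at most 3.4e-08, 7.4e-06 and 0.00028 in the order Tim-4-CD4-, Tim-4-CD4+, Tim-4+CD4+). This has to be read against the whole table, in which 37.3%, 39.1% and 39.5% of the tested genes were called higher. The libraries of the 2 groups did not overlap for any of the 10 genes, against 36.7%, 37.9% and 37.5% of all genes with every macrophage library above every monocyte library. The median log2 fold change over the 10 genes was 4.90, 4.83 and 4.62, beside 0.08, 0.11 and 0.10 over all genes tested. The 3 comparisons share the monocyte libraries. Monocytes and macrophages also differed in tissue of origin and in exposure to enzyme and warm incubation, and these cannot be told apart from cell type. In sorted bulk cells, fewer cells with a transcript and less of it per cell cannot be told apart either.

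Gene positions are those of GRCm38. The Fos family contributes proteins that pair with Jun proteins and do not pair with themselves. Fos (ENSMUSG00000021250.13, chr12:85473890-85477273) had 173, 169 and 244 CPM in the monocyte libraries. It had 6170, 7487, 6243 and 6455 CPM in Tim-4-CD4- macrophages, 5934, 6136, 7771 and 6864 in the Tim-4-CD4+ subset, and 6472, 5993, 6432 and 5921 in Tim-4+CD4+ macrophages. The lowest macrophage library was thus more than an order of magnitude above the highest monocyte library. Fos was 33.7-fold higher in Tim-4-CD4- macrophages (95% interval 26.7 to 42.6), 34.2-fold in the Tim-4-CD4+ subset (27.0 to 43.2) and 31.8-fold in Tim-4+CD4+ macrophages (25.2 to 40.1).

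Fosb (ENSMUSG00000003545.3, chr7:19302696-19310051), whose short splice form lacks part of the activation domain, was scarce in monocytes, at 8.99, 8.09 and 10.7 CPM. Its levels were 5854, 6895, 5265 and 6328 CPM in Tim-4-CD4- macrophages, 4988, 6576, 7258 and 6475 in the Tim-4-CD4+ subset, and 5892, 5015, 5571 and 6123 in Tim-4+CD4+ macrophages. Fosb had the largest fold of the 10 genes, 658 (interval 492 to 881), 684 (511 to 917) and 611 (457 to 817) in the 3 subsets. From near the middle of the monocyte ranking by level per length, at place 8788, it stood at places 35, 32 and 42 in the macrophages.

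Fosl2 (ENSMUSG00000029135.10, chr5:32135801-32157842), which encodes Fra-2, behaved differently in size. Its monocyte libraries held 202, 254 and 242 CPM, as much as those of Fos before length is taken into account. Per kilobase of exon the monocyte mean was 24.0 CPM for Fosl2 and 83.1 CPM for Fos. Tim-4-CD4- macrophages held 728, 701, 585 and 556 CPM, Tim-4-CD4+ macrophages 394, 405, 466 and 481, and Tim-4+CD4+ macrophages 313, 356, 409 and 359. The fold over monocytes was the smallest of the 10 genes, 2.76 (interval 2.29 to 3.34), 1.88 (1.56 to 2.26) and 1.54 (1.29 to 1.86).

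Jun (ENSMUSG00000052684.4, chr4:95049034-95052222), the partner of the Fos proteins in classical AP-1, had 28.6, 30.4 and 37.7 CPM in monocytes. Values in Tim-4-CD4- macrophages were 3344, 4134, 3538 and 3516 CPM, those in Tim-4-CD4+ macrophages 3301, 3367, 4145 and 3223, and those in Tim-4+CD4+ macrophages 3077, 3054, 3777 and 3244. The fold was 113 (interval 88.6 to 144), 109 (85.6 to 139) and 102 (80.3 to 130). The antisense gene Junos overlaps Jun, and whether counting used the strand of the reads is not given in the sources used here.

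Junb (ENSMUSG00000052837.6, chr8:84974484-84978718) and Jund (ENSMUSG00000071076.6, chr8:70698949-70700616), which encode the other Jun proteins, were already present in monocytes. Junb had 242, 190 and 247 CPM there and Jund 156, 124 and 128 CPM. Junb reached 3962, 4381, 4316 and 3727 CPM in Tim-4-CD4- macrophages, 2966, 3251, 5287 and 3458 in the Tim-4-CD4+ subset, and 3968, 3592, 4178 and 4368 in Tim-4+CD4+ macrophages. Tim-4-CD4+ replicate 3 lay above all other libraries for Junb. For Jund the values were 1555, 2081, 1813 and 1761 CPM, then 1205, 1334, 2219 and 1431, and then 1779, 1424, 1669 and 1603, with the same replicate at the top. The folds were 18.1, 16.5 and 17.8 for Junb and 13.3, 11.4 and 11.9 for Jund. The annotation places Prdx2 over part of Junb and Gm11175 over part of Jund.

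Egr1 (ENSMUSG00000038418.7, chr18:34859823-34864984) was low in monocytes, at 17.4, 22.7 and 20.9 CPM. In the gut it had 3499, 3882, 4213 and 3747 CPM in Tim-4-CD4- macrophages, 3093, 2802, 3972 and 2926 in the Tim-4-CD4+ subset, and 1894, 2442, 2951 and 2506 in Tim-4+CD4+ macrophages. Every Tim-4+CD4+ library lay below every Tim-4-CD4- library. The fold over monocytes was 189 (interval 140 to 255), 157 (117 to 212) and 120 (89.9 to 161).

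Egr2 (ENSMUSG00000037868.15, chr10:67535475-67542188), a relative of Egr1 that binds the same kind of site, was close to absent from monocytes, at 1.29, 1.97 and 1.28 CPM from 182, 202 and 69 counts. Macrophage levels were 198, 207, 197 and 183 CPM in the Tim-4-CD4- subset, 100.2, 88.5, 137 and 99.5 in the Tim-4-CD4+ subset, and 72.9, 80.7, 97.8 and 73.0 in Tim-4+CD4+ libraries. No Tim-4-CD4- library overlapped with the other subsets. The fold over monocytes was 129 (interval 93.6 to 177), 69.8 (51.3 to 94.9) and 53.2 (39.3 to 72.1).

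Atf3 (ENSMUSG00000026628.13, chr1:191170296-191218039), a stress-induced bZIP factor that often represses inflammatory genes, had 97.2, 62.7 and 77.0 CPM in monocytes. The subsets held 1917, 2439, 1917 and 2093 CPM (Tim-4-CD4-), 1749, 1770, 2126 and 1796 CPM (Tim-4-CD4+), and 1640, 1403, 1602 and 1402 CPM (Tim-4+CD4+). Each library of the last group lay below each library of the others. The fold was 26.5, 23.6 and 19.1 over monocytes, and Gm24748 lies within the span of Atf3.

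Ier2 (ENSMUSG00000053560.4, chr8:84661331-84662852), a small nuclear protein gene, was the most abundant of the 10 per length in monocytes, with 170, 166 and 178 CPM. It had 856, 1002, 869 and 778 CPM in Tim-4-CD4- macrophages, 579, 558, 774 and 577 in the Tim-4-CD4+ subset, and 632, 547, 604 and 457 in Tim-4+CD4+ macrophages. The rise over monocytes was small next to that of the Egr genes, 5.12-fold, 3.63-fold and 3.27-fold.

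**Figure D2:**
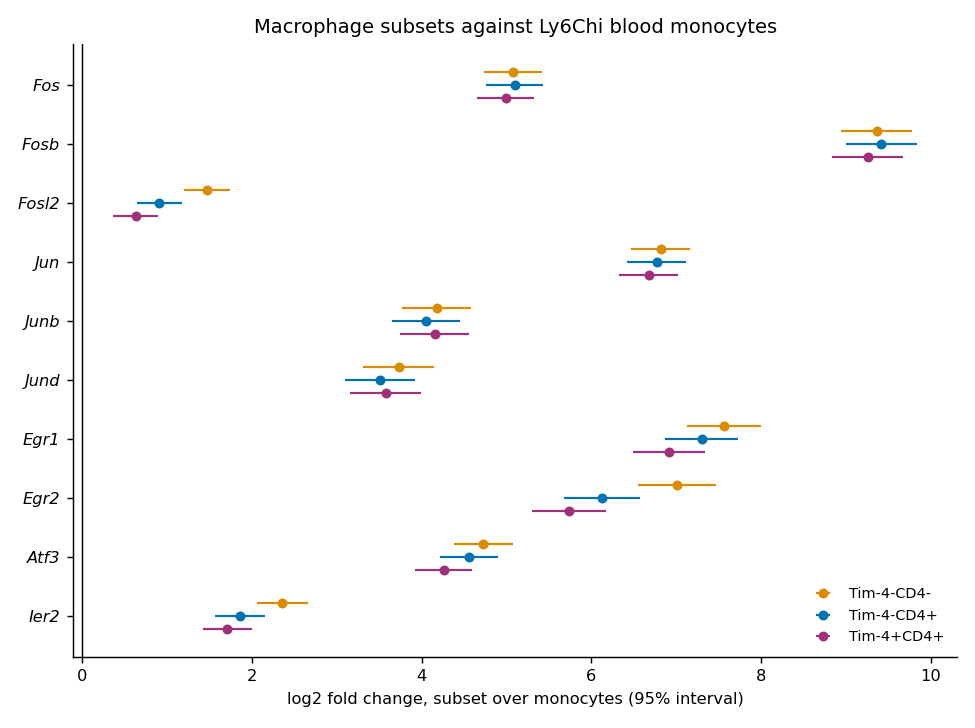
Log2 fold change of each gene in the 3 macrophage subsets over Ly6Chi monocytes, with bars for the 95% interval. All intervals lie above 0, with estimates from 0.63 for Fosl2 in Tim-4+CD4+ macrophages to 9.42 for Fosb in Tim-4-CD4+ macrophages.

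Between the macrophage subsets the genes differed in whether they passed the test, and a difference between called and uncalled genes was not tested. Fos, Fosb, Jun, Junb and Jund did not pass the test in any of the 3 comparisons, whereas Egr2, Fosl2, Ier2, Egr1 and Atf3 fell in at least 1. None of the 10 was called higher in a CD4+ subset. The largest difference was that of Egr2 in Tim-4+CD4+ against Tim-4-CD4- macrophages, a log2 fold change of -1.27 ± 0.15 (SE).

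Tim-4-CD4+ macrophages had lower Egr2, Fosl2 and Ier2 than Tim-4-CD4- macrophages. That is 3 of 10 genes called lower, against 5.53% of all genes, and 0 of 10 called higher, against 4.52%. The same 3 were those whose libraries did not overlap, against 9.91% of all genes with every Tim-4-CD4+ library below every Tim-4-CD4- library. Egr2 was 0.542 times as high (interval 0.438 to 0.669, edgeR adjusted p = 0.00071), Fosl2 0.679 times (0.574 to 0.804, adjusted p = 0.0042) and Ier2 0.710 times (0.594 to 0.847, adjusted p = 0.014). The call of Ier2 was lost without any 1 of Tim-4-CD4+ replicates 1, 2 and 4 or Tim-4-CD4- replicate 2, where the edgeR adjusted p lay between 0.052 and 0.062. Without Tim-4-CD4+ replicate 3, which was high in most of the 10 genes, 5 genes were called, the added ones being Junb at -0.35 and Jund at -0.45 (log2 fold change, edgeR adjusted p = 0.049 and 0.024).

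In Tim-4+CD4+ against Tim-4-CD4- macrophages, 5 of the 10 genes were lower, and 11.9% of all genes tested were called lower. None was higher, where 11.3% of all genes were. Egr2 was 0.413 times as high (interval 0.334 to 0.512, edgeR adjusted p = 6.9e-06), Fosl2 0.559 times (0.473 to 0.662, adjusted p = 4.7e-05), and Egr1 0.638 times (0.524 to 0.778, adjusted p = 0.0021). Ier2 was 0.639 times as high (0.535 to 0.763, edgeR adjusted p = 0.00087) and Atf3 0.723 times (0.603 to 0.867, adjusted p = 0.011). For these 5 genes, and for 13.8% of all genes, every Tim-4+CD4+ library lay below every Tim-4-CD4- library. The call of Atf3 was lost without Tim-4-CD4- replicate 2 (-0.38 on the log2 scale, edgeR adjusted p = 0.051).

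Between the CD4+ subsets, with and without Tim-4, none of the 10 genes passed the threshold by edgeR or by DESeq2. Of all genes tested, 1.34% were lower and 2.07% higher. Unadjusted p-values under 0.05 were found for 4 of the 10, all lower in Tim-4+CD4+ macrophages, where 6.67% of all genes were lower by that measure and 14.5% passed it in either direction: Egr1 at -0.39 ± 0.14, Egr2 at -0.39 ± 0.14, Atf3 at -0.30 ± 0.12 and Fosl2 at -0.28 ± 0.11 (log2 fold change ± SE, edgeR adjusted p from 0.16 to 0.26). Atf3 was the only one of the 10 whose libraries did not overlap, against 4.12% of all genes lower in that way.

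For the genes that were not called, the intervals limit how large a difference could be. Fos lay between 0.852 and 1.21 times in Tim-4-CD4+ over Tim-4-CD4- macrophages and between 0.792 and 1.12 times in Tim-4+CD4+ over Tim-4-CD4- macrophages. The intervals of Fosb were 0.871 to 1.24 and 0.778 to 1.11, and those of Jun 0.820 to 1.14 and 0.768 to 1.07. Those of Junb, 0.734 to 1.14 and 0.790 to 1.22, and of Jund, 0.681 to 1.08 and 0.712 to 1.13, were wider. The coefficient of variation of Junb and Jund in Tim-4-CD4+ macrophages was 28.1% and 29.5%, against a median of 8.51% there over genes of at least 10 CPM.

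**Figure D3:**
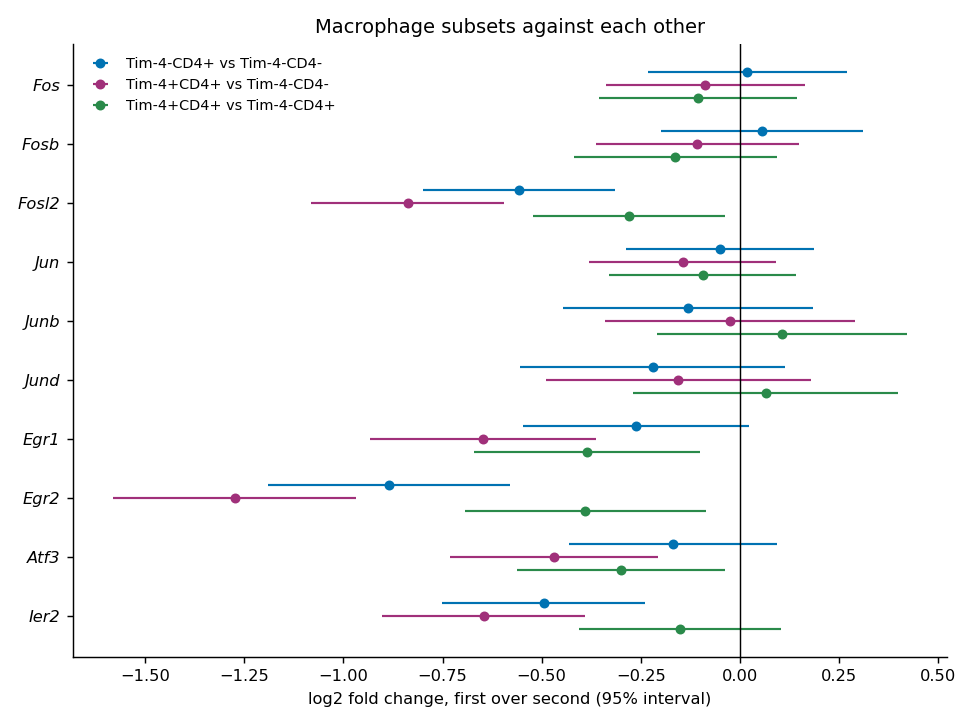
Log2 fold change of each gene between the macrophage subsets, with bars for the 95% interval and the first-named subset over the second. Egr2 and Fosl2 lie clear of 0 on the left in both comparisons with Tim-4-CD4- macrophages, at -0.88 and -1.27 for Egr2, while Fos, Fosb, Jun, Junb and Jund cross 0 in each comparison.

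Some markers of other cells moved with the subsets. The monocyte gene Ccr2 lay between 510 and 759 CPM in the Tim-4-CD4- subset, 65.2 and 113 in the Tim-4-CD4+ subset, and 4.84 and 15.8 in Tim-4+CD4+ macrophages. In the dendritic cell list, Flt3 lay between 4.41 and 17.9 CPM in Tim-4-CD4- macrophages and at or below 1.61 CPM in the CD4+ subsets. B and plasma cell genes summed to between 236 and 426 CPM in the macrophages, mostly Jchain, and to at most 10.5 CPM in monocytes. The 5 mesenchymal genes summed to between 59.6 and 138 CPM in macrophages and to at most 0.0283 CPM in monocytes. Endothelial genes summed to between 108 and 124, 175 and 215, and 287 and 349 CPM in the 3 subsets, mostly Pecam1, which macrophages also express. T cell genes reached at most 8.41 CPM and epithelial genes at most 29.3 CPM in any macrophage library, and the neutrophil genes at most 2.21 CPM in any library. The part of these cells in the levels of the immediate early genes was not tested.

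The Tim-4-CD4- replicate 2, Tim-4-CD4+ replicate 3 and Tim-4+CD4+ replicate 3 libraries stood apart in heat shock transcripts, which are induced by heat and protein damage. The 12 heat shock genes summed to 3182, 8344, 3287 and 4349 CPM in Tim-4-CD4-, 2675, 3886, 7385 and 2779 CPM in Tim-4-CD4+, and 2976, 2614, 7405 and 3666 CPM in Tim-4+CD4+ macrophages, against 2969, 2411 and 2626 CPM in monocytes. Each of the 12 was highest in that 1 library of its subset. Of the 10 immediate early genes, 8 were highest in Tim-4-CD4- replicate 2, 9 in Tim-4-CD4+ replicate 3 and 4 in Tim-4+CD4+ replicate 3. Summed over the 10 genes, these libraries had 33210, 34150 and 27290 CPM, where the others of their subsets ran from 28080 to 29140, from 24310 to 27330 and from 23910 to 26060 CPM. With the 3 libraries left out together, all 10 genes were still called higher than in monocytes in each subset. The subset comparisons then called 3, 4 and 0 of the 10 genes, with Atf3 lost in Tim-4+CD4+ against Tim-4-CD4- macrophages at -0.40 (log2 fold change, edgeR adjusted p = 0.053).

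**Figure D4:**
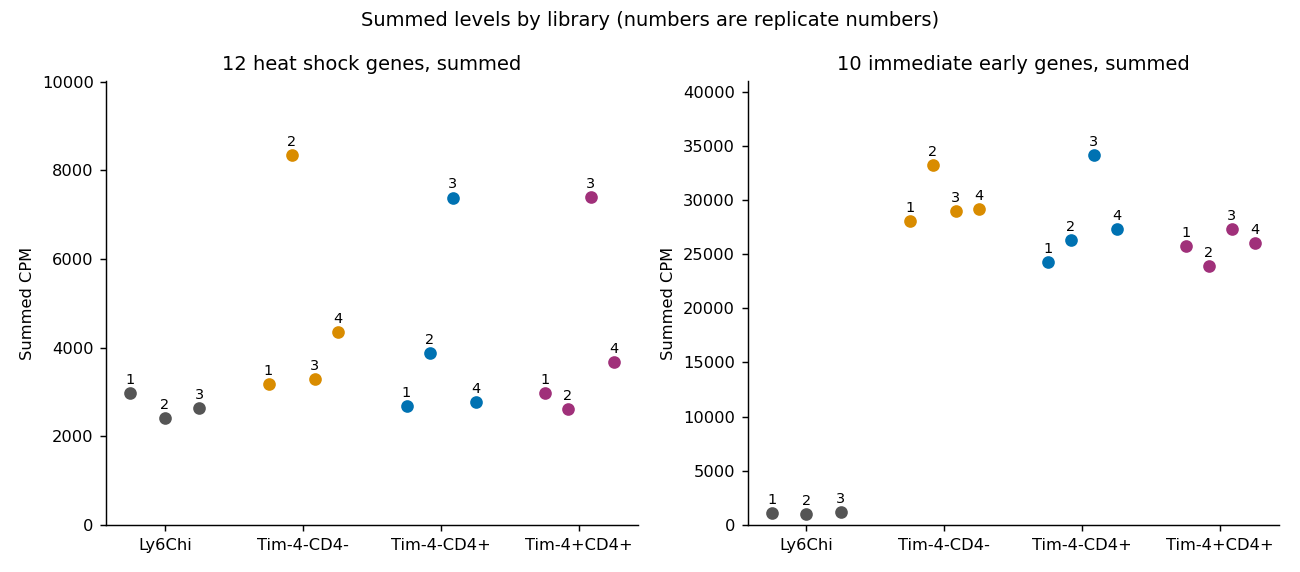
Summed CPM of 12 heat shock genes (left) and of the 10 immediate early genes (right) in each library, with replicate numbers beside the points. A single library of each macrophage subset, at 8344, 7385 and 7405 CPM, stands above the rest on the left, while on the right all macrophage libraries lie far above the monocytes, whose sums ran from 1027 to 1187 CPM.

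Other immediate early genes, listed by their textbook role and including the Nr4a nuclear receptors, dual specificity phosphatases and Klf factors, were measured in the same libraries. Of 28 tested, 26 were higher and 1 lower than in monocytes in each of the 3 subsets. The median log2 fold change was 4.33, 4.09 and 3.89. Egr3 and Ccn1 had 1 count in all 3 monocyte libraries together and no fold is given, and Egr3 reached 34.3, 30.3, 38.0 and 28.1 CPM in Tim-4-CD4- macrophages. Nr4a3 lay between 99.4 and 139 CPM in Tim-4-CD4- macrophages and at most 0.205 CPM in monocytes. Klf10, a TGF-beta inducible factor, was the 1 gene that was lower, with a log2 fold change of -1.74 ± 0.16, -2.37 ± 0.16 and -2.20 ± 0.16 (SE). Over all genes, 28.1%, 30.7% and 31.3% were called lower in the 3 comparisons, and 37.3%, 39.1% and 39.5% higher.

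Between subsets the same list moved down more often than up. In Tim-4-CD4+ against Tim-4-CD4- macrophages 10 of 28 fell and 1 rose, with a median of -0.24, and in Tim-4+CD4+ against Tim-4-CD4- macrophages 15 fell and 1 rose, with a median of -0.40. Of all genes tested, 5.53% and 11.9% were called lower and 4.52% and 11.3% higher in these 2 comparisons. Between the CD4+ subsets those shares were 1.34% and 2.07%. In Tim-4+CD4+ against Tim-4-CD4+ macrophages 2 fell, Egr3 and Nr4a2, with a median of -0.13 (4 were called by DESeq2, 1 with a replicate block by the description numbers, and 1 without any 1 of monocyte replicate 1, Tim-4-CD4- replicate 1, Tim-4-CD4+ replicates 3 and 4 and Tim-4+CD4+ replicates 1 and 4). Nr4a2, an orphan nuclear receptor, stepped down without overlap: 89.2, 86.4, 108 and 77.3 CPM in Tim-4-CD4-, 47.1, 48.1, 46.5 and 47.0 CPM in Tim-4-CD4+, and 24.2, 27.2, 26.0 and 24.1 CPM in Tim-4+CD4+ macrophages. The log2 fold change of Nr4a2 was -0.93 ± 0.10, -1.83 ± 0.10 and -0.90 ± 0.10 (SE) in the 3 comparisons. Egr3 fell by 0.98, 1.92 and 0.94 on the log2 scale, and Dusp2, a phosphatase that switches off MAP kinases, by 1.12 and 1.35 in both comparisons with Tim-4-CD4- macrophages. Plk3, a stress kinase, was the 1 gene of the list that rose, by 0.37 ± 0.10 and 0.64 ± 0.10.

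**Figure D5:**
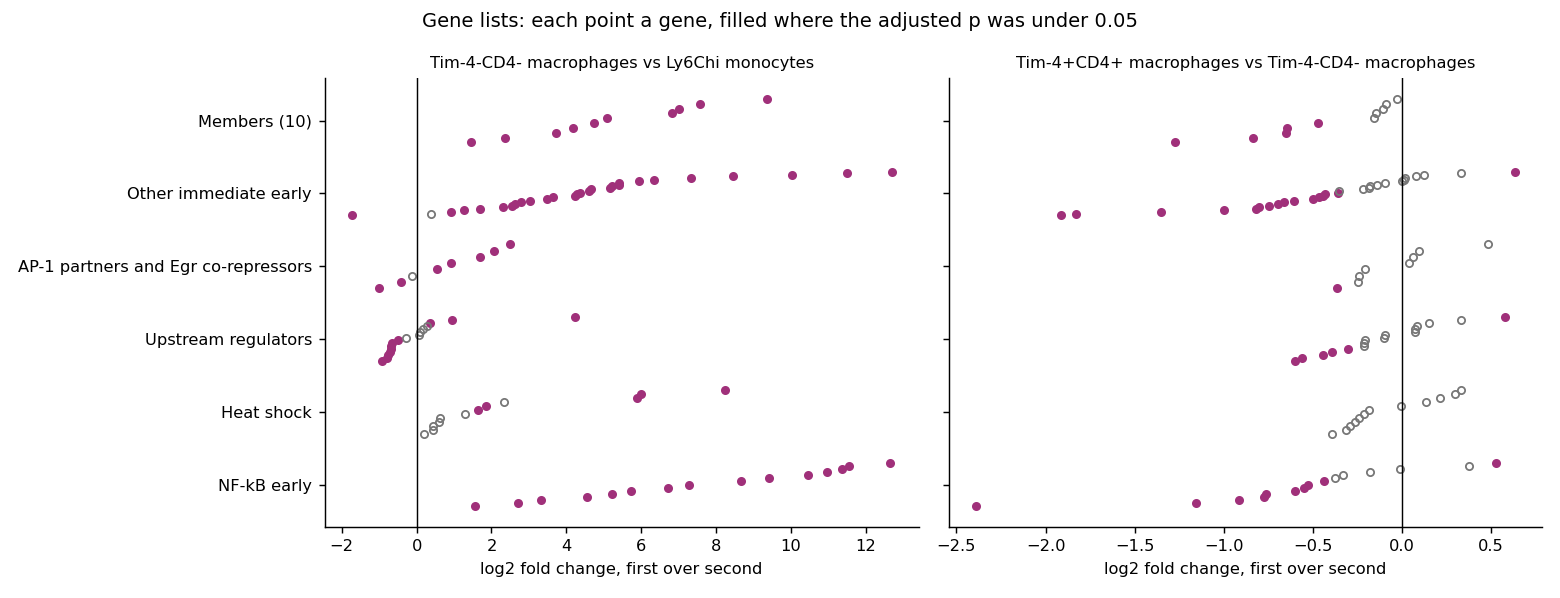
Log2 fold change of single genes in the 10 immediate early genes and 5 further lists, for Tim-4-CD4- macrophages over monocytes (left) and Tim-4+CD4+ over Tim-4-CD4- macrophages (right), filled where the adjusted p was under 0.05. On the left all 10 genes and all 15 NF-kB early genes lie right of 0, and on the right the filled points of the heat shock list number 0. Egr3, Ccn1, Cxcl1 and Hspb1 are drawn on the left with 3 counts or fewer over the monocyte libraries, so their positions give no reliable fold.

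Among the proteins that pair with or restrain these factors, 8 of 9 genes were tested. Jdp2, a repressor that pairs with Jun, was higher than in monocytes by 2.49, 2.25 and 2.55 on the log2 scale, Batf3, another partner of Jun proteins, by 2.07, 1.96 and 2.17, and Nab2, a co-repressor of Egr proteins, by 1.69, 1.61 and 1.72. Nab1, its relative, was lower, at -1.01, -1.12 and -1.37. In the Tim-4-CD4- subset 5 were called higher and 2 lower, in the Tim-4-CD4+ subset 4 and 2, and in the Tim-4+CD4+ subset 4 and 3. Over all genes tested, 37.3%, 39.1% and 39.5% were called higher and 28.1%, 30.7% and 31.3% lower. Between the subsets Nab1 alone was called, at -0.36 ± 0.10 (log2 fold change ± SE) in Tim-4+CD4+ against Tim-4-CD4- macrophages, where 0 to 3 genes of this list were called across the alternative settings. In that comparison 11.9% of all genes were called lower. Of the 8 genes, 0 had an unadjusted p under 0.05 in Tim-4-CD4+ against Tim-4-CD4- macrophages and 2 between the CD4+ subsets, where DESeq2 also called 0. The median of the list was 0.73, 0.68 and 0.85 over monocytes and -0.09, -0.08 and 0.12 between subsets.

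The transcripts of the upstream regulators did not rise as a list. Of 16 kinases and transcription factors, 3 were higher and 8, 11 and 10 lower than in monocytes, with medians of -0.40, -0.52 and -0.47. The shares over all genes were 37.3%, 39.1% and 39.5% higher and 28.1%, 30.7% and 31.3% lower. Crem, a cAMP-responsive factor whose inducible form represses, was the exception in size. It had 3.13 CPM in monocytes on average and 59.4, 92.5 and 88.8 CPM in the 3 subsets, and it rose further by 0.64 ± 0.10 and 0.58 ± 0.10 (log2 fold change ± SE) from Tim-4-CD4- to the CD4+ subsets. Srf, serum response factor, had a mean of 74.9 CPM in monocytes and 85.0, 62.8 and 56.2 CPM in the subsets. Relative to the Tim-4-CD4- subset it fell by 0.44 on the log2 scale in Tim-4-CD4+ cells and by 0.60 in Tim-4+CD4+ cells. In those comparisons 1 of 16 rose and 2 and 5 fell, with medians of -0.13 and -0.15. Of all genes, 4.52% and 11.3% were called higher and 5.53% and 11.9% lower. Elk4 and Elk3, partners of Srf, fell by 0.56 and 0.44 in the second. None of the 16 was called between the CD4+ subsets by edgeR or by DESeq2, and 2 had an unadjusted p under 0.05. Without Tim-4+CD4+ replicate 1 in the fit, 6 of 16 were called in Tim-4-CD4+ against Tim-4-CD4- macrophages in place of 3.

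The genes of the list named NF-kB early were all higher than in monocytes, 15 of 15 in each subset, with medians of 7.27, 6.45 and 6.33. The activity of NF-kB itself was not measured. Of all genes, 37.3%, 39.1% and 39.5% were called higher. Cxcl1, a neutrophil chemoattractant, had 3 counts in the monocyte libraries together, and no fold is given for it. Ptgs2, the inducible cyclooxygenase, was higher by 11.36, 11.20 and 10.76 on the log2 scale. Relative to the Tim-4-CD4- subset, 6 of 15 fell and 0 rose in Tim-4-CD4+ cells, and 9 fell and 1 rose in Tim-4+CD4+ cells. The shares over all genes were 5.53% lower and 4.52% higher, and 11.9% lower and 11.3% higher. Il6 fell by 1.74 and 2.39, Il1a by 1.21 and 1.15, and Socs3, a feedback inhibitor of cytokine signalling, by 0.78 and 0.91. Il10, which encodes an anti-inflammatory cytokine, was the gene that rose, by 0.53 ± 0.15. The medians were -0.25 and -0.52. None of the 15 was called between the CD4+ subsets by edgeR or by DESeq2, and 3 had an unadjusted p under 0.05.

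Heat shock genes were called less evenly. Of 12, 5 were higher than in monocytes in each subset without Tim-4 and 6 in Tim-4+CD4+ macrophages, with medians of 1.47, 1.30 and 1.36. These counts lie near the 37.3%, 39.1% and 39.5% of all genes called higher. For the Tim-4-CD4- subset the count was 9 when only the 2 populations compared were fitted, 8 when the 3 libraries high in these genes were left out, and also 8 when either Tim-4-CD4- replicate 1 or Tim-4+CD4+ replicate 3 was. Hspa1a, which encodes the inducible Hsp70, was higher by 6.01 ± 0.78, 6.13 ± 0.78 and 6.30 ± 0.79 (log2 fold change ± SE). None of the 12 was called between subsets by edgeR or by DESeq2, 0 had an unadjusted p under 0.05 by edgeR, with medians of -0.15, -0.20 and 0.06.

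Some genes outside the 10 followed the same pattern. Over the 15 libraries, the mean of the 10 genes in log2 CPM, each centred on its own mean, was followed most closely by Pea15a, C1qtnf1, Osm, Btg2 and Maff among 8298 genes of at least 10 CPM (Pearson r of 0.999 each), and Fos alone by Ets2, Zfp36, Cxcl2, Gpr162 and Rasgef1b (r from 0.998 to 0.999). The monocyte and macrophage libraries lie far apart in these genes, and that step makes up most of such values. Within the subsets, over the 12 macrophage libraries with the mean of each subset taken out, the closest to the 10 genes were Phlda1, Cebpa, Mknk2, Rxrb and Cebpb (r from 0.972 to 0.987). The closest to Fos alone within the subsets were Tbc1d20, Sqstm1, Man1c1, Orai3 and Tpst2 (r from 0.934 to 0.951). These are the top of a ranking, given as a description, and the part of the libraries high in heat shock transcripts in them was not tested.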

How the data were processed

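RNA from 15 sorted-cell libraries was read as strand-specific mRNA libraries. Per the labels and the study's methods, the authors trimmed reads with Trimmomatic 0.36, aligned them with STAR to GRCm38.p4, counted them per gene with HTSeq 0.6.1p1 on GENCODE vM11, and deposited raw counts. A further 15 columns of normalized values were not used. Samples were grouped by title. Gene symbols were matched to 19421 of 19456 identifiers, with exon lengths, overlaps and positions from GENCODE vM21 (GRCm38). That is the genome build of the counts in a later annotation. The 10 genes and all gene lists were chosen with earlier results of these data known.

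The deposited counts were fitted in edgeR 4.0.16 (R 4.3.3) over all 15 libraries in 1 quasi-likelihood model without a replicate block, after filterByExpr and TMM, with p-values two-sided and adjusted over 15802 genes (Benjamini-Hochberg, threshold 0.05). CPM are counts scaled to 1000000 per TMM-scaled library, and log2 CPM used a prior count of 2. At the depths of 39388763 to 151510641 counts, a gene with 3 counts or fewer over a group was given no fold in the text. Standard errors and 95% intervals came from the same test. The study's methods describe the libraries of a group as independent sorts of pooled mice, so p-values measure the spread between sorts. Which libraries of different subsets shared a sort is not given in the sources used here. From each list and comparison, up to 3 called genes a direction with the largest change and a mean of at least 1 CPM could be named. Alternatives were DESeq2 1.42.0, 2 other normalizations, no filter, only the populations compared, replicate blocks, thinned counts, a 2-fold minimum and leaving out each library. Leaving out the 3 libraries high in heat shock genes was chosen after seeing the data. The fits were tested on simulated data. Figures used Python and matplotlib.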

Additional observations from a re-analysis of the deposited data

Results flagged for a closer look

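In 39 groups of 4 macrophage libraries screened (the 10 genes, their sum and share, and the heat shock sum in each subset), 3 held a library far from the other 3 by Dixon's criterion, which chance alone gives in about 5% of groups. All 3 were Tim-4-CD4+ replicate 3. Jun stood at 4145 CPM there, with the other libraries of the subset between 3223 and 3367 CPM. Atf3 stood at 2126 CPM, with the others between 1749 and 1796 CPM. Ier2 stood at 774 CPM (773.8), with the others between 558 and 579 CPM. The same library was the highest of its subset for 9 of the 10 immediate early genes and for each of the 12 heat shock genes, and its part in these values was not tested further.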

How the results depend on the processing

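Each of the 6 counts of immediate early genes called was recomputed under 25 alternatives. Against monocytes the count was 10 in each comparison and alternative, except that requiring a 2-fold change left out Fosl2 in both CD4+ subsets (9 genes each). Under that rule the counts were 0 for Tim-4-CD4+ and 1, Egr2, for Tim-4+CD4+ against Tim-4-CD4- macrophages, since the rule removes small changes by construction. Leaving out each library in turn gave 2 to 5 genes for Tim-4-CD4+ and 4 to 5 for Tim-4+CD4+ against Tim-4-CD4- macrophages, and 0 between the CD4+ subsets. With a replicate block, by the numbers in the titles or in the descriptions, the counts were 10, 10, 10, 3, 5 and 0, as without it. Those blocks need not follow the sorts, so these counts do not show what a block by sort would give. The labels do not show which libraries share a sort. Titles and descriptions disagree for Tim-4-CD4+ macrophages, and 2 of 12 same-numbered pairs by title and 4 of 12 by description had a correlation of their deviations above 0.1, from -0.12 to 0.13 and from -0.09 to 0.16. Of 24 best matches between a library and another subset, 6 had the same title number. The 3 libraries high in heat shock genes matched one another best, at 0.24, 0.184 and 0.134. So did Tim-4-CD4- replicate 3, Tim-4-CD4+ replicate 1 and Tim-4+CD4+ replicate 2, at 0.136, 0.135 and 0.173. Tim-4-CD4- replicate 4, Tim-4-CD4+ replicate 2 and Tim-4+CD4+ replicate 4 did too, at 0.161, 0.128 and 0.138. Tim-4-CD4- replicate 1 and Tim-4-CD4+ replicate 4 matched each other at 0.219, while Tim-4+CD4+ replicate 1 reached 0.094 at most. Whether such sets share a sort was not tested, and no fit used all of them as its block. Log2 fold changes reversed only among genes that were not called. In Tim-4-CD4+ against Tim-4-CD4- macrophages the leave-out range was -0.065 to 0.088 for Fos, -0.02 to 0.155 for Fosb and -0.143 to 0.02 for Jun. In Tim-4+CD4+ against Tim-4-CD4- macrophages it was -0.066 to 0.034 for Junb, with 0.025 under upper-quartile normalization and 0.004 without the 3 libraries high in heat shock genes. Between the CD4+ subsets it was -0.157 to 0.006 for Jun and -0.032 to 0.302 for Jund. DESeq2 called 917 genes in all between the CD4+ subsets, where edgeR called 539. Of 1440 fold changes of the 10 genes under alternatives, 1419 kept direction and side of the threshold, 6 lost it, 2 gained it and 13 reversed. The cause of these shifts was not tested. The smallest count of any of the 10 genes in a library was 69, and what more libraries or depth would resolve was not tested.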
